A study of Mus musculus with 8 samples.

Results

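The BCL2 family decides, at the outer membrane of mitochondria, whether a cell starts the intrinsic pathway of apoptosis. The 10 family genes described here were taken from the count table by symbol, 10 of the 41730 genes and features it lists, and fall into 3 classes. The anti-apoptotic class holds Bcl2, Bcl2l1 and Mcl1, the effector class Bax and Bak1, and the BH3-only class Bcl2l11, Bbc3, Pmaip1, Bid and Bad. All 10 had enough counts to be among the 12162 genes tested.

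RNA came from mouse CD8+ T cells of the OT-I genotype, which carry a transgenic T cell receptor for the ovalbumin peptide SIINFEKL. They shared a culture with dendritic cells derived from bone marrow and loaded with this peptide, and were sorted by FACS before total RNA was taken. The control group (replicates 1 to 4) received the solvent DMSO, and the treated group (replicates 5 to 8) received 2 µM RGX-104, a small molecule that activates LXR, the nuclear receptors for oxidised cholesterol. Libraries were made with the Lexogen 3′ FWD kit, which reads transcripts near their 3′ end. Both groups share the OT-I transgene, the peptide and the dendritic cells, so neither is a resting T cell, and drug and solvent were added to a culture that also held dendritic cells. The age and sex of the mice and the length of the culture are not given in the labels. Nor do the labels say whether the 4 replicates of a group came from separate mice or cultures, so the p-values below measure the spread between these libraries, which may be technical.

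As background, BAX and BAK are the proteins that form pores in the outer mitochondrial membrane, through which cytochrome c escapes and triggers the caspases. BCL-2, BCL-XL and MCL-1 bind BAX and BAK and hold them inactive, and the BH3-only proteins, each induced or activated by its own kind of stress, neutralise these guardians or engage BAX and BAK directly. In T cells, BIM (the product of Bcl2l11) and BCL-2 are the pair best known for setting the survival of naive and memory cells and the contraction of activated ones, and MCL-1 is needed at nearly every stage.

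Total counts lay between 13144704 and 15966972 per library. Levels are given as CPM, the count of a gene relative to the size of its library, with library sizes scaled by the trimmed mean of M values (TMM). The summed level of 10 CD8 T cell markers was 1955 to 2005 CPM in controls and 2304 to 2387 CPM with RGX-104. Of the 10, 4 passed the test as higher, against 0.888% of all tested genes. Dendritic cell markers summed to 548 to 605 CPM and 533 to 645 CPM, most of it from Ccr7, which T cells also express. Without Ccr7 they summed to 110 to 123 CPM and 101 to 126 CPM. Of the genes left, Cst3 (up to 80.8 CPM) and Cd83 (up to 29.2 CPM) were the highest. The others reached at most 8.26 CPM (Cd74), so the sum is not read as an amount of dendritic cells. By edgeR 0 of 10 tested were called, with 2 lower at an unadjusted p under 0.05 and 0 called by DESeq2 or limma-voom. Macrophage and monocyte markers summed to 56.7 to 63.1 CPM in controls and 61.7 to 69.0 CPM with RGX-104. Among them Ctss (up to 41.3 CPM) and Apoe (up to 11.6 CPM) were the highest, and the others reached at most 4.70 CPM (Lyz2). B cell markers summed to 1.78 to 2.42 CPM in controls and 1.37 to 2.08 CPM with RGX-104. For CD4 and regulatory T cell markers the sums were 4.86 to 6.14 CPM and 3.28 to 5.84 CPM, and for erythroid markers 97.0 to 100.01 CPM and 85.8 to 107 CPM. Markers of NK cells had 1 count in each control library and 2 to 4 with RGX-104. The dendritic cell genes H2-Aa, H2-Ab1 and H2-Eb1 and the B cell gene Cd79a were listed at 0 in every library, which is not read as absence of their RNA. The part these markers play in the results below was not tested.

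With RGX-104, 2 of the 10 BCL2 family genes fell and 0 rose by edgeR's quasi-likelihood test (Benjamini-Hochberg adjusted p under 0.05 over all tested genes). Bbc3, which encodes the BH3-only protein PUMA, was 2.34-fold lower, and Bcl2, which encodes the anti-apoptotic protein BCL-2, was 1.27-fold lower. The genes that fell thus belong to opposing classes, one pro-survival and the other pro-death. Among all tested genes 1.78% were called lower and 0.888% higher. DESeq2 and limma-voom also called 2 members lower and 0 higher, and at an unadjusted p under 0.05 edgeR had 3 lower (Bbc3, Bcl2 and Pmaip1) and 1 higher (Bcl2l11). Over all tested genes, 1679 of 12162 had an unadjusted p under 0.05, which is the background for such counts here and in the pathway lists below. The median log2 fold change was 0.02 over the 10 members and 0.0028 over all tested genes, and 6 of the 10 were above 0. The libraries of the 2 groups did not overlap for 3 members, Bcl2 and Bbc3 lower and Mcl1 higher, where 4.32% of all tested genes were lower without overlap and 3.88% higher. Bulk RNA cannot tell a change in the amount of a transcript per cell from a change in the share of cells that hold it.

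**Figure D1:**
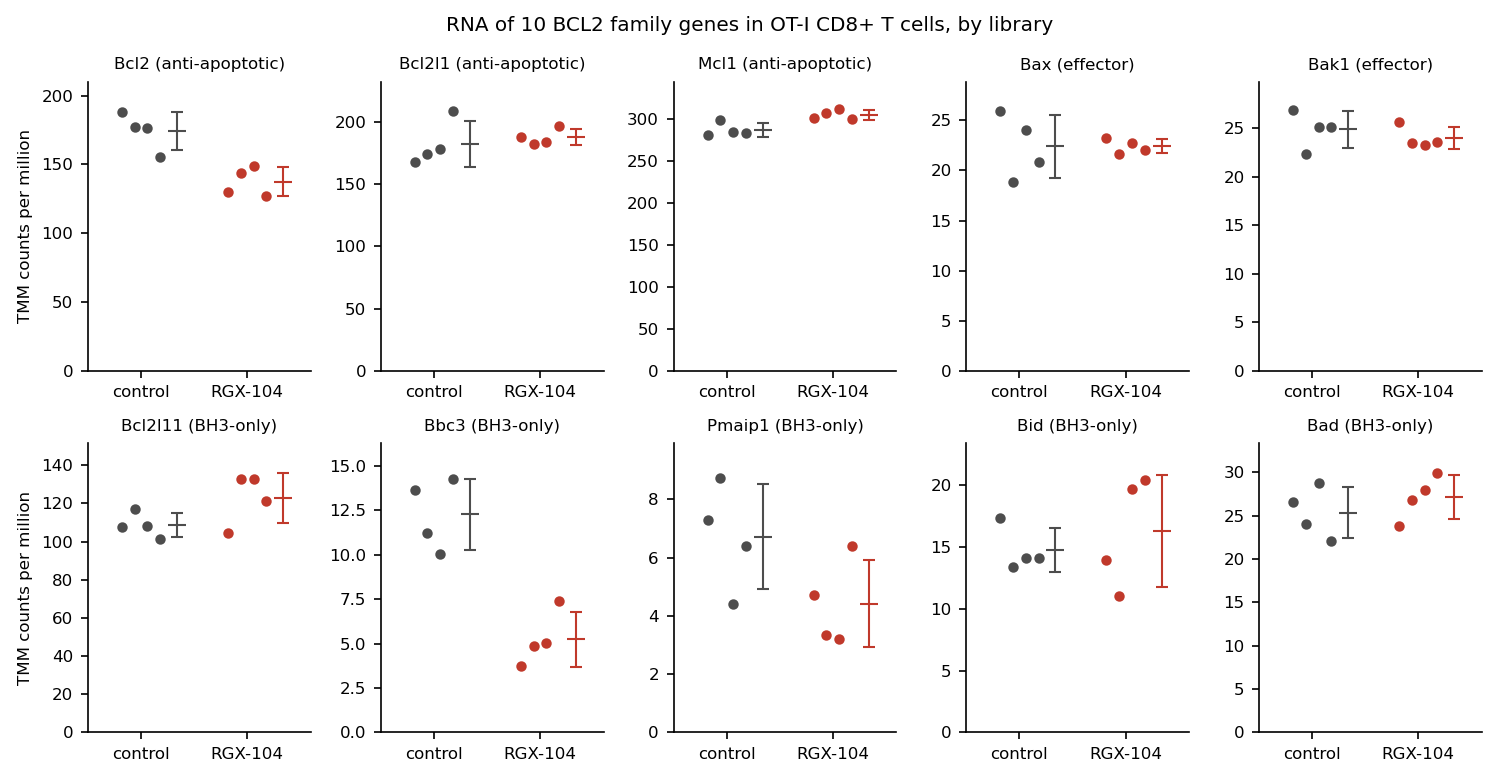
Level of each of the 10 BCL2 family genes in every library, in CPM on an axis that starts at 0, with control and RGX-104 libraries as points beside the mean and SD of each group. Bcl2 is at 155 to 188 CPM in controls and 127 to 149 CPM with RGX-104, and Bbc3 at 10.03 to 14.3 CPM and 3.72 to 7.39 CPM; the points of the other members overlap or, for Mcl1, nearly touch.

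Among the anti-apoptotic genes, Bcl2 (chromosome 1, 106538176 to 106714290, minus strand) stood at 188, 177, 176 and 155 CPM in control replicates 1 to 4. With RGX-104 it stood at 130, 144, 149 and 127 CPM in replicates 5 to 8. Every treated library was below every control library, although the lowest control, replicate 4, and the highest treated library, replicate 7, were close. Means were 174 ± 13.8 CPM and 137 ± 10.4 CPM (SD, n = 4 each), on 1671 to 2911 counts per library. The log2 fold change was -0.34 ± 0.07 (SE, 95% interval -0.48 to -0.20, edgeR adjusted p = 0.00587).

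Bcl2l1 (chromosome 2, 152758732 to 152833803), whose main product in lymphocytes is BCL-XL, is the family member that activated T cells switch on after stimulation through the antigen receptor and CD28. It stood at 167, 174, 178 and 209 CPM in controls and at 188, 182, 184 and 197 CPM with RGX-104. All treated libraries lay inside the control range, and the log2 fold change of 0.04 ± 0.07 (SE) had a 95% interval of -0.09 to 0.18 (edgeR adjusted p = 0.842).

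Mcl1 (chromosome 3, 95656944 to 95663179) encodes a short-lived guardian that BIM, PUMA and NOXA all bind. Its level was 280.3, 299.1, 284.5 and 283.1 CPM in controls and 301.0, 306.8, 311.5 and 299.3 CPM with RGX-104. The treated libraries were all higher, the lowest by a margin of less than 1 CPM over control replicate 2. That separation was lost when libraries were scaled by relative log expression factors (lowest treated 298.6, highest control 299.3 CPM) or by total counts alone (299.1 against 299.7 CPM). The log2 fold change of 0.09 ± 0.05 (SE, 95% interval -0.01 to 0.19) did not pass the test (edgeR adjusted p = 0.450).

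The effector genes gave values near 0. Bax (chromosome 7, 45461695 to 45466903), which encodes a pore former that sits in the cytosol until it is activated, was at 25.9, 18.9, 24.0 and 20.9 CPM in controls and at 23.3, 21.7, 22.8 and 22.0 CPM with RGX-104. The treated libraries all lay within the spread of the controls. Its log2 fold change had a 95% interval of -0.27 to 0.27 (edgeR adjusted p = 0.999). Bak1 (chromosome 17, 27019812 to 27028627), whose product sits in the mitochondrial membrane, was at 26.9, 22.3, 25.2 and 25.2 CPM in controls and at 25.7, 23.4, 23.2 and 23.6 CPM with RGX-104. Here too the treated range fell inside the control range, and the log2 fold change was -0.05 ± 0.12 (SE, 95% interval -0.30 to 0.20, edgeR adjusted p = 0.899). Of the 2 effector genes, edgeR called 0, as did both other tools, and the unadjusted p was under 0.05 for 0. The counts of 281 to 416 per library for this pair leave changes within those intervals undetected.

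Among the BH3-only genes, Bbc3 (chromosome 7, 16308398 to 16318334) had the largest difference of any member. PUMA, its product, binds all anti-apoptotic family members and is known as a target of p53, of forkhead factors and of the stress factors ATF4 and CHOP. Bbc3 was at 13.6, 11.2, 10.03 and 14.3 CPM in control replicates 1 to 4, on 211, 167, 159 and 216 counts. With RGX-104 it was at 3.72, 4.87, 5.02 and 7.39 CPM in replicates 5 to 8, on 53, 70, 75 and 97 counts. The highest treated library, replicate 8, was below the lowest control, replicate 3. The log2 fold change was -1.23 ± 0.22 (SE, 95% interval -1.69 to -0.77, edgeR adjusted p = 0.00180). The separation held under all 3 ways of scaling the libraries.

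Bcl2l11 (chromosome 2, 128126038 to 128162547) encodes BIM, the BH3-only protein that removes T cells deprived of cytokine. It was at 108, 117, 108 and 101 CPM in controls and at 105, 133, 133 and 121 CPM with RGX-104. Treated replicates 6, 7 and 8 were above all controls, whereas replicate 5 lay among them. The log2 fold change was 0.18 ± 0.08 (SE, 95% interval 0.02 to 0.34) and did not pass the test (edgeR adjusted p = 0.290); without RGX-104 replicate 5 it was 0.25 with an adjusted p of 0.0739. Levels of 3 genes of dividing cells, chosen outside the rule for named genes, are given beside replicate 5. Mki67 was at 243 CPM in that library, against 223 to 246 CPM in controls and 136 to 193 CPM in replicates 6 to 8. Cenpe was at 119 CPM in it, against 116 to 144 CPM in controls and 95.9 to 106 CPM in the others. Hmgb2 did not set it apart, since replicates 5 and 6, at 310 and 315 CPM, both lay within the control range of 309 to 399 CPM, above replicates 7 and 8 at 245.5 and 251.4 CPM. The part of these genes in the Bcl2l11 values was not tested.

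Pmaip1, on chromosome 18, encodes NOXA, which binds chiefly MCL-1 and speeds its breakdown. It was at 7.30, 8.74, 4.42 and 6.41 CPM in controls and at 4.70, 3.34, 3.21 and 6.40 CPM with RGX-104. The groups overlapped, with treated replicate 8 level with control replicate 4. The log2 fold change of -0.61 ± 0.28 (SE, 95% interval -1.19 to -0.03) did not pass the test (edgeR adjusted p = 0.336), on 48 to 130 counts per library.

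Bid (chromosome 6, 120893119 to 120917062), which links death receptors to mitochondria once caspase-8 cleaves its product, was at 17.3, 13.4, 14.1 and 14.1 CPM in controls. With RGX-104 it was at 14.0, 11.1, 19.7 and 20.3 CPM, so replicates 7 and 8 were above all controls and replicate 6 below them. Its log2 fold change was 0.14 ± 0.18 (SE, 95% interval -0.24 to 0.52, edgeR adjusted p = 0.798). Bad (chromosome 19, 6941861 to 6951905), whose product is held inactive by phosphorylation downstream of growth factor signals, was at 26.5, 24.0, 28.8 and 22.1 CPM in controls and 23.8, 26.8, 28.0 and 29.9 CPM with RGX-104. These ranges overlapped, and the log2 fold change was 0.10 ± 0.13 (SE, 95% interval -0.16 to 0.36, edgeR adjusted p = 0.798).

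**Figure D2:**
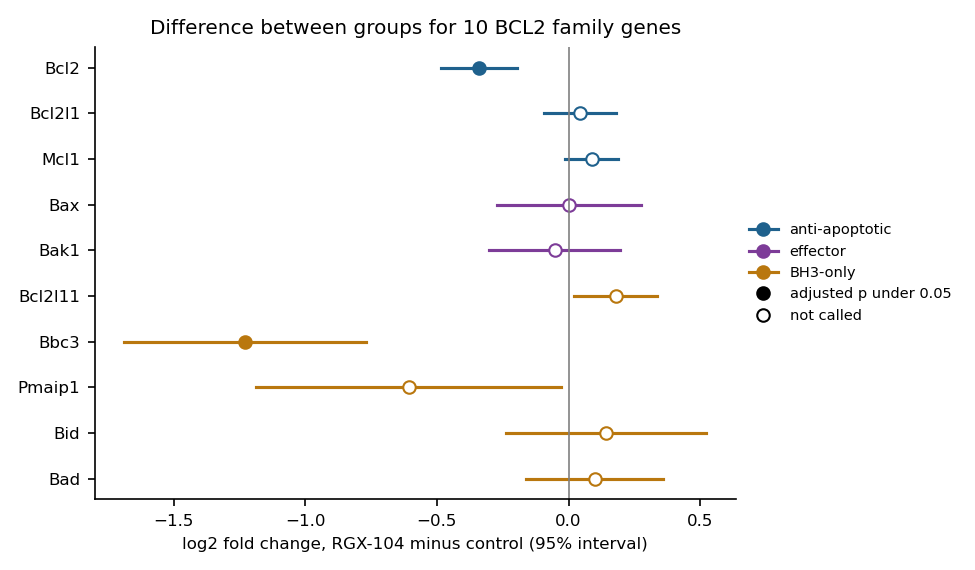
Log2 fold change (RGX-104 minus control) of each BCL2 family gene by class, as points with 95% intervals from edgeR's quasi-likelihood fit. Bbc3 at -1.23 and Bcl2 at -0.34 are the members called at an adjusted p under 0.05, and the intervals of Pmaip1 and Bcl2l11 exclude 0 only before adjustment.

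Promoter sequence is shown for Bbc3, the member with the largest change, and for Bcl2l11, a BH3-only gene with a positive fitted difference (as Bid and Bad also had), because both are textbook targets of forkhead (FOXO) factors. RefSeq promoter windows of GRCm38.p6 (250 bases before to 50 after a transcript start) were found for 9 of the 10 members, 15 windows in all. The motifs TGTTTAC (forkhead), TGATGNAA (core of the composite site of ATF4 and CHOP), TGACGTCA (cyclic AMP response element), CACGTG (E-box) and the p53 consensus half-site were searched on both strands, and overlaps between motifs were allowed. The windows below are on the plus strand, written 5′ to 3′, at chr7:16310011-16310310 and chr2:128125788-128126087, and capitals mark the forkhead motif.
Bbc3: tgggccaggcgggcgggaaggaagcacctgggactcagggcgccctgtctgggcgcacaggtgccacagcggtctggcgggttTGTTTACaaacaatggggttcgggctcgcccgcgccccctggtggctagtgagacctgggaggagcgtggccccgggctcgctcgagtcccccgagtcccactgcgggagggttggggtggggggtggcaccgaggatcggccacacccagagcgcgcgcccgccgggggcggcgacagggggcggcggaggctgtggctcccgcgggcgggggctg
Bcl2l11: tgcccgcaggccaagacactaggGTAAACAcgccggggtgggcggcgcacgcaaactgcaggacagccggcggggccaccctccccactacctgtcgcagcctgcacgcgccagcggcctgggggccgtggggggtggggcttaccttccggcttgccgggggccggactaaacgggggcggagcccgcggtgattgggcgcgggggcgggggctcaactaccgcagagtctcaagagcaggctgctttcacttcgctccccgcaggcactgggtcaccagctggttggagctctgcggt
In Bbc3 the motif reads forward and begins 167 bases before the transcript start, one of 3 starts listed for this gene. In Bcl2l11 it reads on the opposite strand and begins 227 bases before the start, one of 2 starts listed for this gene. The printed windows were chosen because they held the forkhead motif, and the other windows of both genes did not hold it. Forkhead motifs were in 3.65% of the 32851 windows of all genes. The ATF4 and CHOP core (3.97% of all windows) and the cyclic AMP response element (1.79%) were in none of the 15 windows, which says only that these letters are not there. An E-box (7.15% of all windows) was in another Bbc3 window and at 2 places in the window of Bax, which also held a p53 half-site (8.36% of all windows). GC content was 74.7% in the Bbc3 window and 71% in that of Bcl2l11, against a median of 52.7% over all windows. A match of letters is a description and no evidence of binding.

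Summed by class, the levels of the 2 groups overlapped. The 3 anti-apoptotic genes summed to 643 ± 6.80 CPM in controls and 630 ± 11.2 CPM with RGX-104 (SD, n = 4 each). The effector genes summed to 47.3 ± 4.91 CPM and 46.4 ± 1.72 CPM, and the BH3-only genes to 168 ± 7.43 CPM and 176 ± 17.2 CPM. On a log2 scale these ratios of means were -0.03, -0.03 and 0.07. Bcl2l11 gave most of the BH3-only counts, and without it the other 4 genes summed to 59.1 ± 3.83 CPM and 53.1 ± 8.65 CPM, a log2 ratio of -0.15, again with overlapping libraries. The sign of the BH3-only sum therefore turned with that 1 gene. Median log2 fold changes by class were 0.04 for the anti-apoptotic, -0.03 for the effector and 0.10 for the BH3-only genes. No test was made on these sums, since members were chosen with earlier results known.

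The make-up of the classes differed between the groups. The kit reads one end of each transcript, so counts do not scale with transcript length, but how many reads a transcript yields can differ between genes; a ratio of 2 genes is therefore compared between groups and not read as a ratio of molecules. Bcl2 made up 29.6, 27.2, 27.6 and 24.0% of the anti-apoptotic counts in controls and 21.0, 22.7, 23.1 and 20.4% with RGX-104, all lower than in any control. Mcl1 made up 44.1, 46.0, 44.5 and 43.8% in controls and 48.6, 48.5, 48.4 and 48.0% with RGX-104, all higher. The share of Bcl2l1 overlapped, at 28.3 ± 2.72% and 29.8 ± 1.41%. The anti-apoptotic sum thus held a smaller part of Bcl2 and a larger part of Mcl1. Shares of one sum are linked, so a fall of Bcl2, the called gene, by itself raises the share of Mcl1. Library scaling cancels out of a share by arithmetic. The separation of the shares therefore adds no support for a change of the Mcl1 level, which was not called.

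Among the BH3-only counts, Bbc3 made up 7.89, 6.44, 6.07 and 9.02% in controls and 2.46, 2.72, 2.66 and 3.98% with RGX-104, without overlap. Bcl2l11 made up 64.8 ± 1.97% and 69.8 ± 3.59%, with overlap. Bcl2 counts per Bcl2l11 count, the ratio of the guardian to its best-known antagonist in T cells, were 1.74, 1.51, 1.63 and 1.53 in controls and 1.24, 1.08, 1.12 and 1.05 with RGX-104. Every treated library was below every control. Bcl2, the called member of this pair, separated the groups by itself. In replicate 5 Bcl2l11 lay within the control range, at 105 CPM against 101 to 117 CPM. The ratio of Bax to Bcl2 was 0.129 ± 0.0148 in controls and 0.164 ± 0.0141 with RGX-104, again without overlap, with Bcl2 as the member of that pair that was called. The ratio of all anti-apoptotic to all BH3-only counts did overlap, at 3.84 ± 0.183 and 3.60 ± 0.341. These shares and ratios are given as descriptions, with no test.

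**Figure D3:**
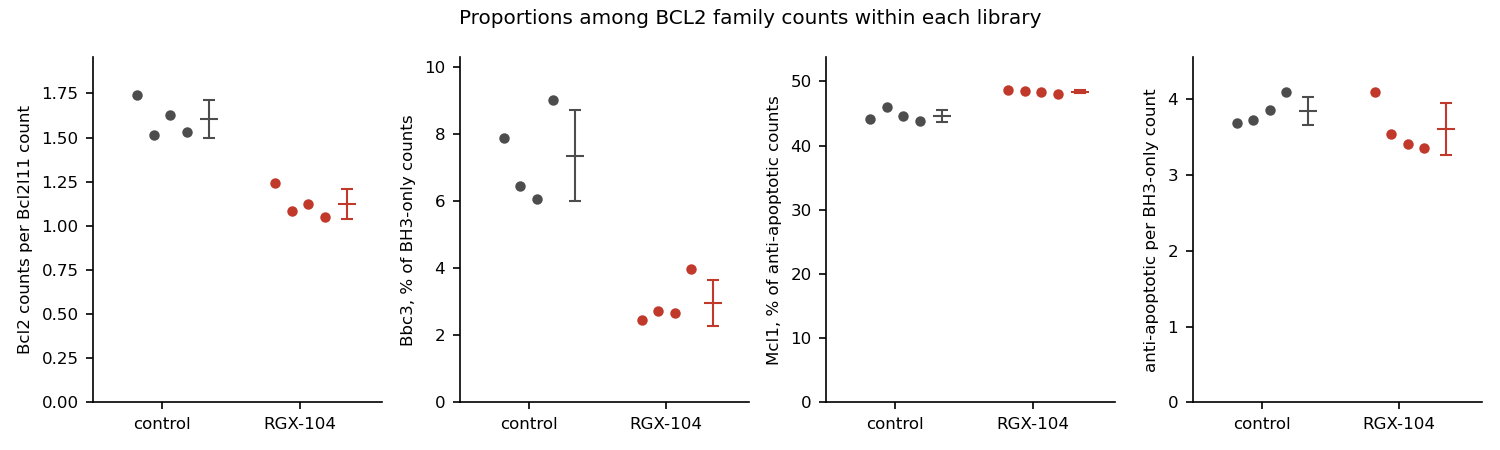
Proportions among BCL2 family counts in each library, with the mean and SD of each group: Bcl2 per Bcl2l11 count, Bbc3 as a percent of BH3-only counts, Mcl1 as a percent of anti-apoptotic counts, and anti-apoptotic per BH3-only count. The first 3 separate the groups (for Bcl2 per Bcl2l11, 1.51 to 1.74 in controls and 1.05 to 1.24 with RGX-104), and the last overlaps, since RGX-104 replicate 5, at 4.102, is as high as control replicate 4, at 4.091.

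The pathway around the members was described with 8 lists of 109 genes, chosen with earlier results of these data known. Of these, 99 were tested, 5 rose and 8 fell. The median log2 fold change over these 99 was -0.0032. Over all tested genes 0.888% were called higher and 1.78% lower, which is the background for calls in each list. In the rest of the BCL2 family, 0 of 8 tested genes were called by edgeR, with 1 higher and 2 lower at an unadjusted p under 0.05; limma-voom called 0 and DESeq2 called 1, lower. That gene was Bnip3, which with Bnip3l serves the removal of mitochondria by autophagy. Bnip3 was at 32.6 ± 1.84 CPM in controls and 23.8 ± 4.66 CPM with RGX-104 (log2 fold change -0.45, edgeR adjusted p = 0.0803; DESeq2 adjusted p = 0.0417), and without RGX-104 replicate 7 edgeR gave -0.55 with an adjusted p of 0.0452. Bnip3l had a log2 fold change of -0.48 (edgeR adjusted p = 0.108) and Bcl2l12, a distant family member, 0.42 (edgeR adjusted p = 0.342).

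Downstream of the mitochondria, 0 of 16 tested genes of the apoptosome, caspases and mitochondrial factors were called by edgeR, with 1 higher and 2 lower at an unadjusted p under 0.05; limma-voom called 0 and DESeq2 called 1, higher. That gene was Vdac2. Vdac2, whose channel protein binds BAK, had a log2 fold change of 0.14 (edgeR adjusted p = 0.148; called by DESeq2 at 0.0367), and Vdac3 -0.21 (edgeR adjusted p = 0.302). Of the 5 inhibitor of apoptosis genes, 0 were called by any of the 3 tools, with 1 lower at an unadjusted p under 0.05. Birc3 had a log2 fold change of -0.27 (edgeR adjusted p = 0.262), Xiap, which blocks caspases directly, -0.06 (0.750) and Birc6 -0.03 (0.878).

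In the death receptor pathway, 1 of 12 tested genes rose and 1 fell. Cflar, which encodes c-FLIP, the inhibitor of caspase-8 activation, was at 89.4, 81.3, 91.2 and 91.6 CPM in controls and 66.8, 72.0, 77.0 and 71.1 CPM with RGX-104, all lower. Its log2 fold change was -0.30 ± 0.08 (SE, edgeR adjusted p = 0.0292), and the call was lost, at adjusted p of 0.0780 to 0.109, without control replicate 1, 3 or 4 or RGX-104 replicate 5, 6 or 8. Tnfsf10, the gene of the death ligand TRAIL, was at 19.3, 17.0, 14.5 and 16.9 CPM in controls and 20.8, 23.5, 28.7 and 24.5 CPM with RGX-104, all higher. Its log2 fold change was 0.53 ± 0.14 (SE, edgeR adjusted p = 0.0476), just inside the threshold: limma-voom gave an adjusted p of 0.0518, edgeR without a filter on low counts 0.0621, and leaving out control replicate 2, 3 or 4 or RGX-104 replicate 6, 7 or 8 gave 0.0892 to 0.181. Fas, a death receptor upstream of caspase-8 and Bid, had a log2 fold change of -0.52 with no overlap of libraries and was not called (edgeR adjusted p = 0.163).

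Of 16 tested genes in the list of transcription regulators of BCL2 family genes, 5 fell and 1 rose. Among all tested genes 1.78% were called lower and 0.888% higher. Ddit3, the gene of CHOP, a stress factor known to repress Bcl2 and to induce Bbc3 and Bcl2l11, was at 60.6 to 68.2 CPM in controls and 13.6 to 19.0 CPM with RGX-104 (log2 fold change -1.97 ± 0.12, SE, edgeR adjusted p = 1.15e-10). Atf4, its upstream activator, fell by 0.62 on the log2 scale (edgeR adjusted p = 1.50e-07), and Trib3, a target of both that restrains them, fell by 2.84 (edgeR adjusted p = 3.18e-12). Atf3 fell by 0.81 (edgeR adjusted p = 0.000448) and Jun, a component of AP-1, by 0.35 (edgeR adjusted p = 0.00713). Nfkb1, which encodes a subunit of NF-κB, rose by 0.25 ± 0.06 (SE, edgeR adjusted p = 0.0197), a call lost at adjusted p of 0.0550 to 0.0957 without control replicate 1, 2 or 3 or RGX-104 replicate 5 or 6. The level of a regulator's RNA was not tested against the level of any member.

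Trp53 (log2 fold change 0.05, edgeR adjusted p = 0.844), Foxo3 (-0.14, 0.753) and Foxo1 (0.01, 0.974), chosen after their values were seen because p53 and FOXO factors regulate Bbc3, were not called. The RNA level of these genes does not give the activity of their proteins, and their part in the Bbc3 values was not tested. Of 16 tested p53 target genes 2 fell and 0 rose by edgeR, with 5 lower and 2 higher at an unadjusted p under 0.05. Sesn2, a stress sensor that restrains mTORC1 and is also induced by ATF4, was at 13.0 to 18.7 CPM in controls and 4.82 to 6.95 CPM with RGX-104 (log2 fold change -1.46 ± 0.19, SE, edgeR adjusted p = 3.85e-05). Trp53inp1 was at 10.7 to 13.8 CPM and 4.00 to 8.17 CPM (log2 fold change -1.04 ± 0.22, SE, edgeR adjusted p = 0.00754). Zmat3 had a log2 fold change of 0.51 (edgeR adjusted p = 0.0586) and was called higher by DESeq2 (0.0244). Cdkn1a (-0.54, edgeR adjusted p = 0.292) and Mdm2 (-0.15, 0.459), the most familiar p53 targets and named after their values were seen, were not called.

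The genes of 10 protein partners and turnover factors of the family gave 0 calls by any of the 3 tools, with 1 higher and 1 lower at an unadjusted p under 0.05 by edgeR. Dynll1, a dynein light chain that binds BIM, had a log2 fold change of 0.19 (edgeR adjusted p = 0.126), Usp9x, the deubiquitinase of MCL-1, -0.25 (0.291), and Ywhaq, a 14-3-3 protein, 0.15 (0.381). Of 16 tested survival cytokine receptors and signalling genes, 3 rose and 0 fell by edgeR (1 lower at an unadjusted p under 0.05, the kinase gene Pim1 at -0.16 with adjusted p = 0.0705, and 1 called lower by DESeq2 and by limma-voom). Il2rb, the receptor chain shared by IL-2 and IL-15, was at 383 to 428 CPM in controls and 479 to 510 CPM with RGX-104 (log2 fold change 0.31 ± 0.05, SE, edgeR adjusted p = 0.000479). Pim2, a kinase that phosphorylates BAD, rose by 0.24 ± 0.05 (SE, edgeR adjusted p = 0.00519). Socs2, a STAT5 target, rose by 0.59 ± 0.14 (SE, edgeR adjusted p = 0.0160), a call lost without control replicate 1 (0.0553), RGX-104 replicate 7 (0.0622) or RGX-104 replicate 8 (0.0698). The median log2 fold change of this list was 0.16, against 0.0028 over all tested genes. The median was 0.17 over the 10 tested CD8 T cell markers, so a shift of this size was not particular to this list.

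**Figure D4:**
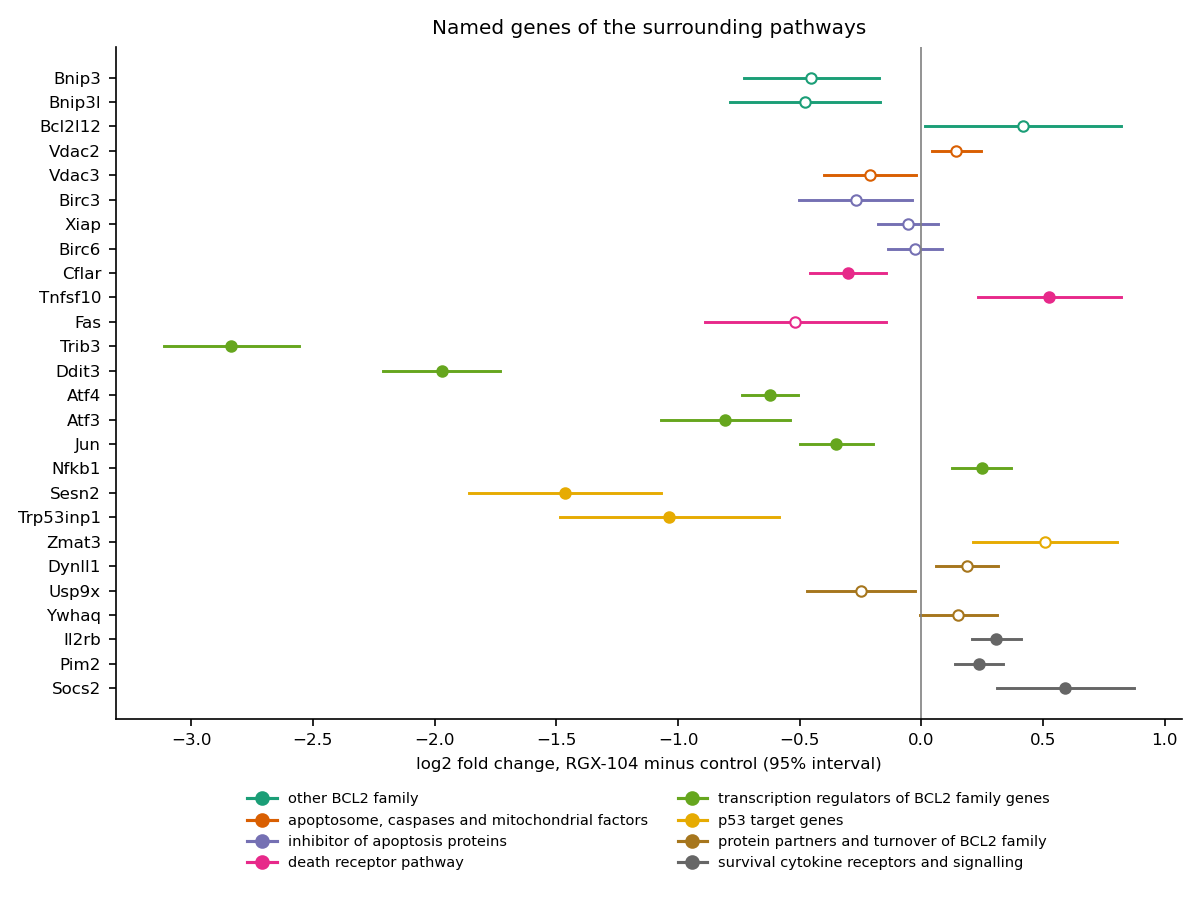
Log2 fold change (RGX-104 minus control) of the 26 named genes of the pathway lists, as points with 95% intervals from edgeR's quasi-likelihood fit, coloured by list and filled where called. The lowest values belong to Trib3 (-2.84), Ddit3 (-1.97) and Sesn2 (-1.46), and Socs2 (0.59) and Tnfsf10 (0.53) are the highest of the called genes.

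Across the 8 libraries, the genes whose log2(CPM + 1) followed Bcl2 most closely among 7505 candidates were Basp1 (Pearson r = 0.983), Sel1l (0.958), Sp140 (0.957), Crebrf (0.955) and Tmsb4x (0.952). For Bbc3, among 7506 candidates, they were Serpinb6b (r = 0.964), Slc7a1 (0.959), AF357399 (0.954), Gpr108 (0.954) and Rgs2 (0.950). Each of these 10 had a negative log2 fold change, and 7 were called lower, all but Basp1, AF357399 and Gpr108. These correlations describe likeness over libraries that share the contrast between groups, and the genes were picked as the highest among all candidates.

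By GENCODE M21, 5 members share 100 or more exonic bases with a second gene, and whether the counts keep strands apart is not given in the sources used here. The partners lie on the opposite strand for Bcl2 (D630008O14Rik, 558 bases, not analysed here), Bid (Bcl2l13, 628 bases), Bad (Gpr137, 524 bases) and Bak1 (Ggnbp1, 437 bases), and on the same strand for Bax (Gm45808, 192 bases, not analysed here). Unless counting kept strands apart, reads of Bcl2 and its antisense partner cannot be told apart where they share bases. These are 558 of the 9157 exonic bases of Bcl2. Whether the counted reads fall there was not examined. Bbc3 had no such overlap. Among the 26 named pathway genes, Bcl2l12, Birc6, Bnip3, Ddit3, Jun and Ywhaq have one, for Ddit3 with another entry of the same name. Bcl2l13, Gpr137 and Ggnbp1 were not called (edgeR adjusted p = 0.906, 0.761 and 0.977).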

How the data were processed

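The authors deposited a table of raw read counts (whole numbers, 1 value per gene and library), and its 8 columns were tied to samples through the numbers and group words of the sample titles (0 columns unmatched). The submitters' processing notes name STAR 2.7.8a, R 4.1.0 and DESeq2 1.4, with no roles, and the build GRCm38. Not given in the sources used here are the counting tool, its strand setting, the annotation release and whether molecular identifiers were used. The size of a count alone is therefore not read as a measure of precision. The intervals and p-values of the test include the spread between libraries.

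The test was edgeR's two-sided quasi-likelihood test (version 4.0.16, R 4.3.3) on all 8 libraries, with group as its single term, after filterByExpr and TMM scaling. P-values were Benjamini-Hochberg adjusted over the 12162 genes tested, with a threshold of 0.05. A standard error is the log2 fold change divided by the square root of F. The biological coefficient of variation was 14.5%. The scripts were tested on simulated counts. DESeq2 1.42.0, limma-voom (limma 3.58.1), other scalings, no filter, a robust fit and leaving out each library were tried.

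Members and pathway lists were chosen with earlier results of these data known. One gene of the pathway lists is not reported here and was left out of the lists' counts and medians. Named genes were the 10 members and, per pathway list, every called gene and the 3 with the smallest p. For Bcl2 and Bbc3, the 5 genes of at least 10 CPM with the highest Pearson correlation were added, unnamed gene models left out. Mki67, Cenpe and Hmgb2 were in no list and were named outside this rule. Coordinates are 1-based, from RefSeq on GRCm38.p6. The entry Bid_1, which repeats the symbol of Bid, had 8 counts in all and was not added to Bid; adding it was tried as an alternative chosen after the table was read. No protein sequences were used here.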

Additional observations from a re-analysis of the deposited data

Results flagged for a closer look

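Bak1 was at 25.7 CPM in RGX-104 replicate 5, above 23.2 to 23.6 CPM in the other libraries of that group. The gap was 0.841 of the range of the group, over Dixon's 95% critical value for 4 samples. It was the one such case among 78 groups of 4 libraries checked over the members, the named pathway genes and the 3 class sums. Chance alone marks about 1 in 20 groups. All 4 values lay within the control range of Bak1.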

How the results depend on the processing

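The counts of members called, 2 lower and 0 higher, were the same under all 14 alternatives run. Bbc3 stayed between -1.43 and -1.10 (adjusted p 3.36e-05 to 0.0123) and Bcl2 between -0.39 and -0.30 (0.00027 to 0.0399). Over all genes, 108 were higher as reported, 172 by DESeq2 and 57 to 93 when 1 library was left out; the lowest, 57, was without control replicate 2. Genes lower numbered 216, and 144 to 272 under the alternatives. Bax, near 0 as reported, ranged from -0.072 to 0.077 and Birc6 from -0.050 to 0.0027 when 1 library was left out; the cause was not tested. Of the 13 named pathway genes called, 9 kept their call and direction under every alternative run; the exceptions were Cflar, Tnfsf10, Nfkb1 and Socs2. Other scalings moved the median log2 fold change of all genes to at most 0.0068. The log2 ratio of the effector sums, -0.03 as reported, was 0.030 without control replicate 1 and -0.087 without control replicate 2, so its sign is not stable. That of the BH3-only sums, 0.07, was 0.034 when RGX-104 replicate 7 was left out and 0.14 when replicate 5 was, and that of the anti-apoptotic sums ranged from -0.04 to -0.02 over all alternatives run for it. At 48 to 216 counts per library, the intervals of Pmaip1 and Bbc3 are the widest among the members. No paired analysis was possible because replicate numbers 1 to 4 and 5 to 8 are not shared between the groups.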
